A study of Mus musculus with 14 samples.

Results

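The surface ligands by which microglia signal to T cells were examined in primary microglia from TIMP2 KO and WT mice. They are 9 genes, Cd80, Cd86, Cd40, Cd83, Cd274, Pdcd1lg2, Icosl, Cd276 and Vsir, chosen by their symbols in the GRCm38 annotation from the 49315 genes of the count table. All 9 were found in the table, and 8 had enough reads for testing. Pdcd1lg2 did not. The cells were isolated from forebrains of C57BL/6 pups of both sexes at P6-P7, selected with CD11b microbeads and kept in serum-containing culture before messenger RNA was sequenced. The KO mice are a global knockout line of Timp2, in which all cell types and not microglia alone carry the altered gene, while the WT mice carry the intact gene. Each genotype had 7 libraries, and each library came from its own isolation of cells pooled from 5 pups.

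T cells need a second signal beside the antigen on MHC molecules before they become active. CD80 and CD86, the B7 molecules, give this signal through CD28 and are also bound by the inhibitory receptor CTLA4, while ICOSL gives it through ICOS. CD40 receives the CD40 ligand of helper T cells and CD83 marks mature antigen-presenting cells. PD-L1 (Cd274) and PD-L2 (Pdcd1lg2) bind the inhibitory receptor PD-1, and VISTA (Vsir) and B7-H3 (Cd276) are further B7-like molecules, of which VISTA holds T cells in check. Resting microglia are known to carry little of the classical costimulatory molecules and to raise them when activated.

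Between 38875344 and 48070236 reads per library were counted on genes. Timp2, the targeted gene, ranged from 120 to 129 CPM (counts scaled to a common library size with TMM factors) in the KO libraries and from 398 to 495 CPM in the WT libraries, with no overlap and a log2 fold change of −1.92. Reads of Timp2 were thus reduced and not absent in KO, and the exons that they came from were not examined. The summed CPM of 12 microglia markers lay between 8618 and 10550 in KO and between 8185 and 10100 in WT. Of these markers, Tmem119 and Siglech were at a mean of 4.19 and 4.64 CPM in KO and 4.88 and 3.88 CPM in WT. Markers of other cell types were also detected, at lower sums than the microglia markers. The summed CPM of 10 astrocyte markers ranged from 30.1 to 137 (median 49.4) in KO and from 34.2 to 260 (median 90.2) in WT, and 9 of the 9 tested markers had a negative log2 fold change (median −0.64). The corresponding ranges were 20.98 to 46.7 in KO and 26.9 to 54.8 in WT for 10 neuron markers, 73.2 to 116 and 74.3 to 133 for 8 oligodendrocyte lineage markers, 24.8 to 51.6 and 21.3 to 42.8 for 5 endothelial markers, 3.36 to 16.4 and 4.55 to 22.9 for 6 mural and fibroblast markers, and 377 to 634 and 332 to 712 for 5 border macrophage markers. The log2 fold change was negative for 9 of the 10 tested neuron markers (median −0.30), 7 of the 7 tested oligodendrocyte lineage markers (median −0.39) and 5 of the 5 tested mural and fibroblast markers (median −0.34), and 0 of these markers passed the threshold. Of the astrocyte markers, S100b (−0.74) had an unadjusted p of 0.0144 and an adjusted p of 0.943 from edgeR. Over all tested genes, 1.62% were lower at an unadjusted p under 0.05 and 50.8% had a log2 fold change above 0. The log2 fold change was positive for 10 of the 12 microglia markers (median 0.034). The same held for 3 of the 4 tested endothelial markers (median 0.15) and 3 of the 4 tested border macrophage markers (median 0.30), and 0 passed. Of the border macrophage markers, Mrc1 averaged 436 CPM in KO and 440 CPM in WT and made up most of the sum. Pf4 and F13a1 averaged 20.6 and 12.7 CPM in KO and 19.4 and 8.82 CPM in WT. Lyve1 and Cd163 averaged 0.0486 and 0.708 CPM in KO and 0.0355 and 0.483 CPM in WT. Of professional antigen-presenting and other blood cells, 7 dendritic cell markers summed to 8.27 to 10.0 CPM in KO and 8.55 to 10.7 in WT, 5 B cell markers to 5.63 to 9.26 and 5.17 to 8.17, 8 T cell markers to 1.95 to 5.51 and 1.30 to 6.76, and 7 monocyte and neutrophil markers to 4.47 to 21.6 and 2.53 to 14.1. The log2 fold change was above 0 for 3 of the 3 tested monocyte and neutrophil markers (median 0.91). It was below 0 for 4 of the 4 tested dendritic cell markers (median −0.14), and 0 of either type passed the threshold. Cd3d, Cd3e and Cd3g, which define T cells, had means of at most 0.0247 CPM in either genotype. In cultures measured in bulk, fewer cells of a type and less RNA per cell cannot be told apart.

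The 9 ligands spanned a wide range in level per length (RPKM, the CPM divided by the kilobases of exon). In WT, Vsir was the highest with 91.8 ± 4.80 RPKM (SD, n = 7), above 97.2% of all tested genes, and it was followed by Cd83 with 59.1 ± 6.18 RPKM (SD, n = 7), above 95.5%. Cd86 with 14.1 ± 1.81 RPKM (SD, n = 7) and Cd274 with 12.3 ± 2.36 RPKM (SD, n = 7) came next, and their ranges overlapped. Cd276 had 5.52 ± 1.65 RPKM (SD, n = 7), Icosl 2.08 ± 0.138 RPKM (SD, n = 7) and Cd80 0.553 ± 0.170 RPKM (SD, n = 7), and the ranges of each of these genes stood apart from those of its neighbours in the order. At the bottom were Cd40 with 0.0748 ± 0.0359 RPKM (SD, n = 7) and Pdcd1lg2 with 0.0308 ± 0.0215 RPKM (SD, n = 7), whose ranges overlapped. The order was the same in KO, with overlaps between the same neighbours. The inhibitory VISTA gene and the maturation marker Cd83 were thus the most abundant messages of the group, and the CD40 receptor gene and the PD-L2 gene were nearly absent.

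**Figure D1:**
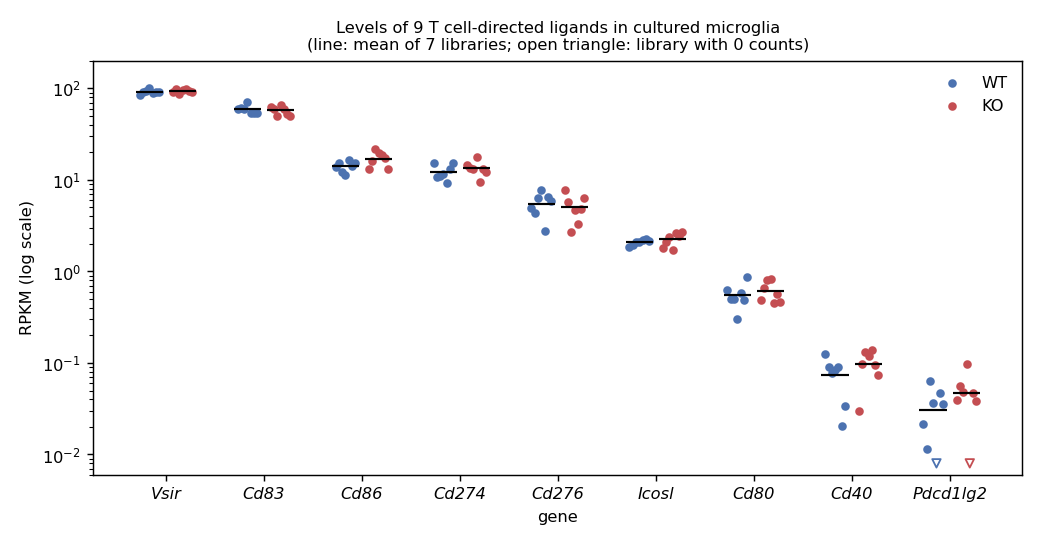
Level per length (RPKM, log axis) of the 9 ligands in each of the 7 WT (blue) and 7 KO (red) libraries, ordered by mean level, with the mean of each genotype as a line and open triangles for libraries with 0 counts. Vsir and Cd83 lie above every other ligand, Cd40 and Pdcd1lg2 lie lowest, and the genotypes overlap in every gene.

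The paired ligands of shared receptors were unequal. Cd86 and Cd80, which bind the same receptors, lie 1.79 Mb apart on chromosome 16, and the RPKM of Cd86 was 18.02 to 37.4 times that of Cd80 in the WT libraries (median 27.8) and 24.1 to 42.0 times in the KO libraries (median 27.1). Cd274 and Pdcd1lg2, which share PD-1, are neighbours on chromosome 19 with 22.8 kb between them. Summed over libraries, the RPKM of Cd274 was 401 times that of Pdcd1lg2 in WT and 288 times in KO, ratios that rest on 19 counts of Pdcd1lg2 in WT and 27 in KO.

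The sequences before the start sites of these neighbours are shown because adjacent genes for ligands of the same receptor differed so widely in level, together with that of Cd276, whose level rose with the astrocyte markers between libraries. The 250 bases before each start are from RefSeq (GRCm38.p6), in which 6 of the 9 ligands were matched. Capitals mark matches, on either strand, to the motifs searched.
Cd274 (chr19:29367188-29367437, forward strand): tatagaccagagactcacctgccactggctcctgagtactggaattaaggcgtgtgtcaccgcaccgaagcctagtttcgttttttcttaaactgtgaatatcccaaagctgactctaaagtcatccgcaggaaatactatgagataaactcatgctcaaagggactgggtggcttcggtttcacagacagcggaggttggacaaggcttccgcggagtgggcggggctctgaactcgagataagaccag
Pdcd1lg2 (chr19:29410669-29410918, forward strand): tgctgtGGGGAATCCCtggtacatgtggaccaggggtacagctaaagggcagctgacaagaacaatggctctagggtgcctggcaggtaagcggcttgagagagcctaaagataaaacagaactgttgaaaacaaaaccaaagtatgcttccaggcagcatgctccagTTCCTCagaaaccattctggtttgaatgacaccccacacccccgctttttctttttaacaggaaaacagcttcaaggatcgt
Cd276 (chr9:58555034-58555283, reverse strand): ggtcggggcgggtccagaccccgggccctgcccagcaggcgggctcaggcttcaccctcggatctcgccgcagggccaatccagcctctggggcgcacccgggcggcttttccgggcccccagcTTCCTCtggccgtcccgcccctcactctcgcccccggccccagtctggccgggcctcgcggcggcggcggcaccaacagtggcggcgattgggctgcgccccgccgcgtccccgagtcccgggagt
The window of Cd276 held 77.6% G and C and 29 CG pairs, against 50.4% and 11 for Cd274 and 48.4% and 3 for Pdcd1lg2, and the median over 32817 windows of this length was 52.4%. The search covered, on both strands and over the window and the first 50 transcribed bases, the interferon gamma-activated site (TTCNNNGAA), the core of the interferon-stimulated response element, the NF-kB consensus, the PU.1 core (GAGGAA) and the TATA box (TATAAA), and no letters of different motifs overlapped in the windows shown. Pdcd1lg2 held an NF-kB match at −244 to −235 from the start and a PU.1 core at −82 to −77. Cd276 held a PU.1 core at −126 to −121, and Icosl an NF-kB match at −111 to −102. An NF-kB match is found in 8.46% of all windows and a PU.1 core in 28.3%. The TATA box letters were matched in 1 of the 6 ligands, Cd80, and are found in 13.6% of all windows. The Cd80 match was on the reverse strand (TTTATA), at 4 to 9 from the start and so within the transcribed bases. The RefSeq window of Cd80 ends at chr16:38458932, inside the span of the gene in the other annotation used here. Neither interferon motif was in the windows of the 6 ligands, and they are found in 8.29% and 3.43% of all windows.

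No ligand differed between the genotypes past the threshold. Of the 8 tested, 0 passed an adjusted p of 0.05 (quasi-likelihood test of edgeR, Benjamini-Hochberg over the 15700 tested genes), a threshold that 0.0191% of all tested genes passed, and 0 passed in DESeq2. At an unadjusted p under 0.05, 1 of the 8, Cd86, was higher in KO and 0 were lower, against 1.75% of all tested genes in the higher, 1.62% in the lower and 3.37% in either direction. The fitted log2 fold change was above 0 for 6 of the 8 and for 50.8% of all tested genes, with a median of 0.12 over the 8 ligands and 0.0016 over all tested genes. The CPM of the genotypes overlapped for all 9 ligands, whereas 0.00637% of all tested genes had every KO library above every WT library and 0.0764% every KO library below.

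**Figure D2:**
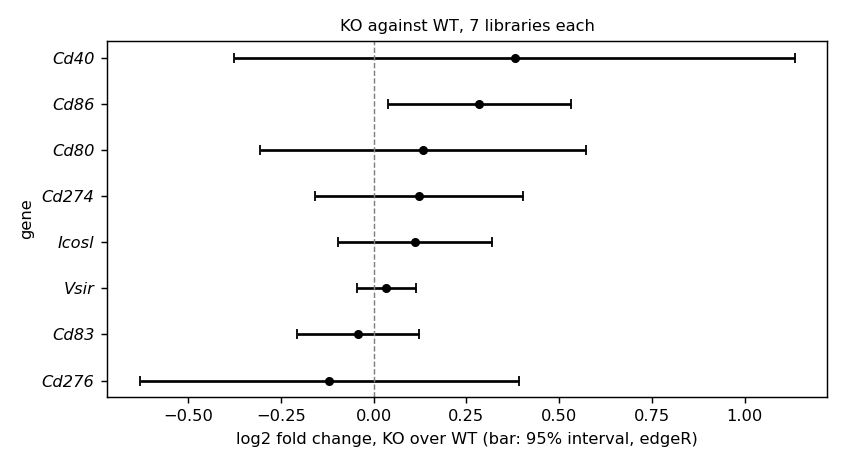
Log2 fold change of KO over WT for the 8 tested ligands (points) with the 95% interval from edgeR (bars) and 0 as a dashed line. The interval of Cd86, from 0.038 to 0.53, lies above 0, and those of the other 7 include 0.

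Cd86 (ENSMUSG00000022901, chr16:36603869-36666081, reverse strand), the more abundant of the B7 costimulators, ranged from 47.8 to 79.0 CPM (median 63.8) in KO and from 41.6 to 59.8 CPM (median 51.4) in WT. The KO libraries of replicates 3, 4, 5 and 6 were above every WT library, and those of replicates 1 and 7 lay below the WT median. KO libraries averaged 62.8 ± 11.9 CPM against 51.5 ± 6.63 CPM for WT (SD, n = 7 each). The log2 fold change was 0.28 with a standard error of 0.116 and a 95% interval from 0.038 to 0.53, at an unadjusted p of 0.0267 and an adjusted p of 0.943 from edgeR. The unadjusted p rose to between 0.0507 and 0.0667 when KO replicate 3, 4 or 5 or WT replicate 3 or 4 was left out, and to 0.0605 with the summed astrocyte markers as a covariate, where the log2 fold change was 0.15. Across 22 alternatives it was under 0.05 in 15, and lowest, at 0.00772 from edgeR, without KO replicate 1. The adjusted p was at least 0.684 in all of them.

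Cd80 (ENSMUSG00000075122, chr16:38455561-38496335, forward strand), the other B7 costimulator, was counted between 47 and 138 times per library. It ranged from 1.65 to 3.04 CPM (median 2.07) in KO and from 1.13 to 3.18 CPM (median 1.86) in WT, and the highest and the lowest of the 14 libraries were both WT. Its log2 fold change was 0.13 (95% interval −0.31 to 0.57, adjusted p = 0.955 from edgeR). This value was 0.027 without WT replicate 4, 0.27 without WT replicate 7 and 0.0031 with the astrocyte covariate. The counting error alone gave a coefficient of variation of 10.4% in WT, where 30.7% was observed.

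Icosl (ENSMUSG00000000732, chr10:78069302-78083913, forward strand), the ligand of ICOS, ranged from 7.98 to 12.3 CPM (median 10.9) in KO and from 8.63 to 10.4 CPM (median 9.58) in WT. The KO libraries enclosed the WT range, with 4 above every WT library and 2 below every one. The SD was 1.77 CPM in KO and 0.639 CPM in WT, and the log2 fold change was 0.11 (95% interval −0.097 to 0.32, adjusted p = 0.943 from edgeR).

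Cd40 (ENSMUSG00000017652, chr2:165055627-165072948, forward strand), the receptor for CD40 ligand, held 4 to 19 counts per KO library and 3 to 20 per WT library. This was 0.102 to 0.469 CPM (median 0.329) in KO and 0.0697 to 0.424 CPM (median 0.287) in WT, with the genotypes overlapping almost entirely. The log2 fold change of 0.38 had a 95% interval from −0.38 to 1.14 (adjusted p = 0.943 from edgeR). Cd83 (ENSMUSG00000015396, chr13:43784775-43803132, forward strand) ranged from 127 to 172 CPM (median 153) in KO and from 137 to 182 CPM (median 154) in WT. Its log2 fold change was −0.042 (95% interval −0.21 to 0.12, adjusted p = 0.963 from edgeR), and 3 KO libraries were below the lowest WT library.

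Of the ligands of PD-1, Cd274 (ENSMUSG00000016496, chr19:29367455-29388095, forward strand) ranged from 34.8 to 64.7 CPM (median 47.9) in KO and from 33.3 to 55.8 CPM (median 41.6) in WT. Replicate 5 was the lowest library in both genotypes, and 1 KO library, replicate 4, lay above the WT range. The log2 fold change was 0.12 (95% interval −0.16 to 0.40, adjusted p = 0.943 from edgeR). Exons of an antisense gene overlap those of Cd274, and the strand setting of the counting is not given in the sources used here, so reads of both cannot be told apart. Pdcd1lg2 (ENSMUSG00000016498, chr19:29410919-29471161, forward strand) had 0 to 8 counts per KO library and 0 to 6 per WT library, and it was listed at 0 in replicate 5 of both genotypes, which allows up to 0.0731 CPM in KO and 0.0655 CPM in WT. It was too low for testing.

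Vsir (ENSMUSG00000020101, chr10:60346851-60372684, forward strand), which encodes VISTA, was the steadiest ligand. It ranged from 436 to 494 CPM (median 469) in KO and from 423 to 504 CPM (median 461) in WT, so that the KO range lay inside the WT range, and its coefficient of variation was 4.51% in KO and 5.23% in WT. The log2 fold change was 0.034 with a 95% interval from −0.046 to 0.11 (adjusted p = 0.943 from edgeR), which corresponds to a fold between 0.969 and 1.08. The gene lies within Cdh23 on the other strand, with no shared exon sequence.

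Cd276 (ENSMUSG00000035914, chr9:58524298-58555437, reverse strand), which encodes B7-H3, varied widely between libraries of the same genotype. It ranged from 9.82 to 28.7 CPM (median 17.8) in KO and from 10.2 to 28.5 CPM (median 21.4) in WT, nearly the same range. The coefficient of variation was 34.97% in KO and 29.97% in WT, where the counting error gave 3.599% and 3.33%. The log2 fold change was −0.12 (95% interval −0.63 to 0.39, adjusted p = 0.966 from edgeR), and it moved to −0.012 without KO replicate 3 and to −0.26 without KO replicate 1. Exons of Gm10657 on the other strand overlap those of Cd276.

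**Figure D3:**
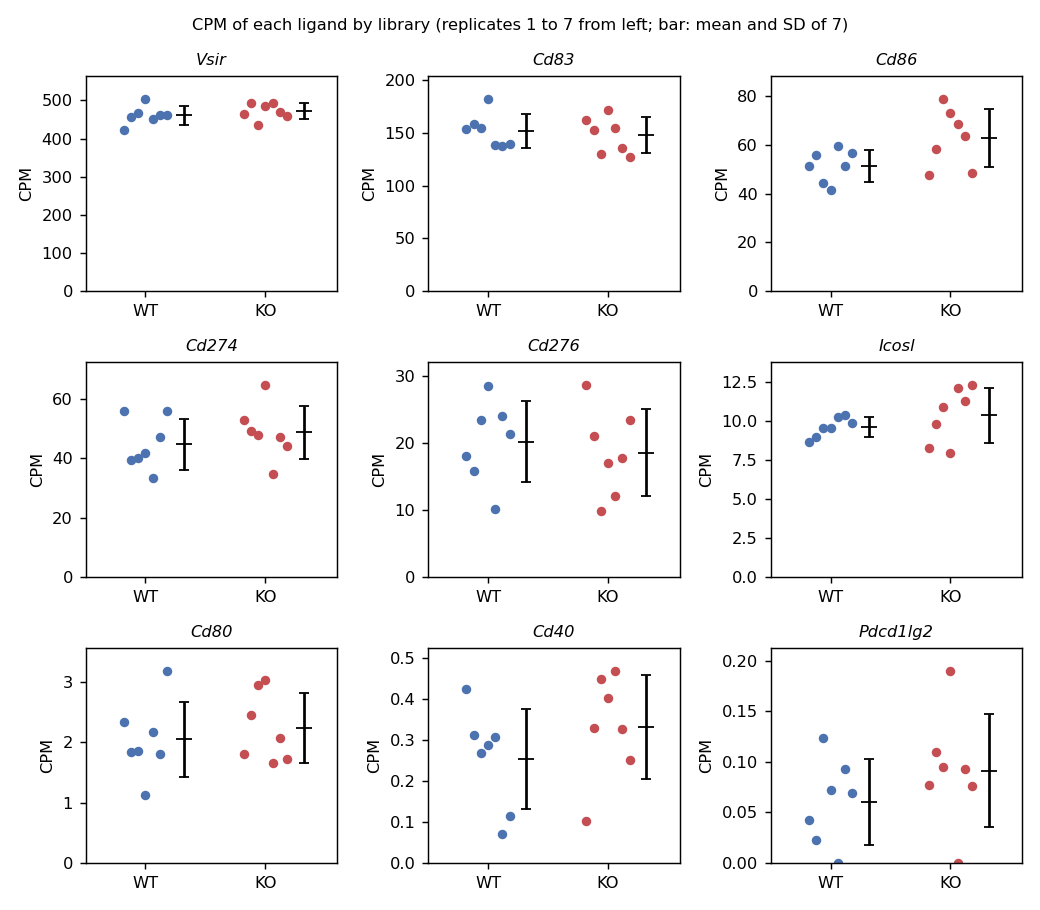
CPM of each of the 9 ligands in the 7 WT (blue) and 7 KO (red) libraries, with replicates 1 to 7 from left to right and the mean and SD as black bars, each panel with its own axis from 0. The KO and WT points overlap in every panel; in Cd86, 4 KO libraries lie above the WT range.

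Between libraries of 1 genotype, Cd86 and Cd276, of the 8 tested ligands, moved with the level of astrocyte RNA past the threshold. The deviations of log2 CPM from the genotype mean were correlated over the 14 libraries for 10 relations, with two-sided permutation within genotype and Benjamini-Hochberg adjustment over the 10. Cd86 fell with the summed astrocyte markers, with r = −0.83 (permutation p = 0.00034, adjusted p = 0.00320) and rho = −0.80 (permutation p = 0.00097, adjusted p = 0.00485). It was −0.86 within KO, −0.87 within WT, and −0.74 without KO replicate 7 and WT replicate 4, the libraries farthest from the median. Of the other tested genes, 1.19% had an r at least as low. Cd276 rose with these markers, with r = 0.81 (permutation p = 0.00064, adjusted p = 0.00320) and rho = 0.85 (permutation p = 0.00051, adjusted p = 0.00485), and it was 0.78 within KO, 0.86 within WT and 0.78 without the same libraries. An r at least as high was found for 6.26% of the other tested genes. Relations to these markers were common among these genes, with 19.1% at an r of −0.5 or lower and 17.1% at 0.5 or higher. The share of all genes that would pass the threshold used for the ligands was not tested. The range of the markers was lower in KO than in WT (medians 49.4 and 90.2 CPM), and with their sum as a covariate the log2 fold change of Cd276 changed from −0.12 to 0.14 (adjusted p = 0.999 from edgeR). The part of astrocyte RNA, or of anything that varies with it, in the levels of Cd86 and Cd276 was not tested beyond these values.

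**Figure D4:**
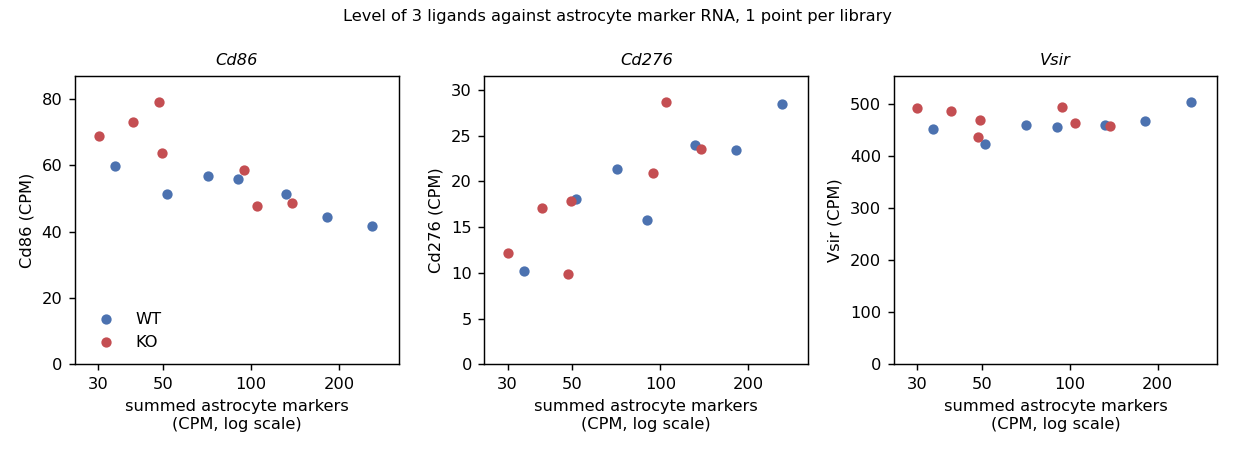
CPM of Cd86, Cd276 and Vsir against the summed CPM of 10 astrocyte markers (log axis) in the 7 WT (blue) and 7 KO (red) libraries. Cd86 is lowest, at 41.6 CPM, in the WT library with the most astrocyte RNA, and Cd276 is mostly higher where there is more of it. Vsir stays between 423 and 504 CPM and is highest in the same WT library.

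Of the other relations, Cd80 and Cd86 were correlated with r = 0.67 (permutation p = 0.0108, adjusted p = 0.0360) and rho = 0.57 (permutation p = 0.0491, adjusted p = 0.143), so that Pearson's r passed after adjustment and Spearman's rho did not. The r was 0.67 within KO, 0.73 within WT and 0.62 without WT replicates 4 and 7. Cd40 and Cd83 had r = 0.19 (permutation p = 0.518) and rho = 0.19 (permutation p = 0.534). The relation of Cd80 with the astrocyte markers had r = −0.55 (permutation p = 0.0543) and −0.27 without KO replicate 7 and WT replicate 4. For Cd40, Cd83, Cd274, Icosl and Vsir r lay between −0.41 and 0.36, with permutation p from 0.179 to 0.955. Cd40 had rho = −0.55 (permutation p = 0.0570, adjusted p = 0.143). Within WT and KO, r was 0.78 and −0.24 for Vsir, 0.62 and −0.26 for Cd83, and −0.21 and −0.71 for Cd40. For Cd274 and Icosl these values lay between −0.0565 and 0.145. The values within 1 genotype were not tested. Over all 28 pairs of the 8 tested ligands the median r was −0.031, 13 pairs were above 0, and the lowest was that of Cd86 with Cd276 at −0.85.

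The tested genes whose deviations were most like those of each ligand, by Pearson's r over the 14 libraries and given without a test, were not ligands of the group. For Cd86 they were Inpp5k (r = 0.97), Wdsub1 (0.94) and Derl1 (0.94), and for Cd276 Parvg (0.96), Npnt (0.96) and Apbb2 (0.96). Those of Cd274 were Ptpn21 (0.93), Bhlhe41 (0.93) and Cpeb4 (0.92), and those of Vsir were Calm2 (0.94), Pop4 (0.91) and Cst3 (0.89). Icosl was most like Pvrig (0.95), Pnma2 (0.92) and Bach2os (0.92), of which Pvrig had a mean of 0.528 CPM. Cd80 was most like Plcl2 (0.91), Paxbp1 (0.89) and Patl1 (0.88), Cd83 like Hnrnpc (0.89), Repin1 (0.87) and Fbxo8 (0.85), and Cd40 like Rab8a (0.90), Trim25 (0.88) and Zfp995 (0.86).

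Genes that work with these ligands were taken from 5 lists, in which 0 genes had an adjusted p under 0.05 in edgeR and 0 passed in the higher direction among all tested genes. The first list held 22 other ligands and adhesion molecules directed at T cells, of which 15 were tested, 8 above and 7 below 0, with a median log2 fold change of 0.060. None had an unadjusted p under 0.05. The highest per length were Cd48, the ligand of CD244 (117 RPKM over all libraries), Lgals9, which encodes the TIM-3 ligand galectin-9 (102 RPKM), and Icam1, the ligand of the integrin LFA-1 (13.3 RPKM). Their log2 fold changes were 0.10 (95% interval −0.013 to 0.22), 0.077 and 0.073.

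Receptors that T cells use for these and for other ligands made up the second list of 15 genes. Of these, 7 were tested, 6 above and 1 below 0, with a median log2 fold change of 0.12. Cd28, the receptor of CD80 and CD86, averaged 47.9 ± 11.1 CPM in KO against 51.2 ± 4.86 CPM in WT (SD, n = 7 each), with a log2 fold change of −0.098, while Cd3d, Cd3e and Cd3g were nearly absent in the same libraries. Havcr2, which encodes TIM-3, averaged 54.96 ± 7.60 CPM in KO against 53.4 ± 9.53 CPM in WT (SD, n = 7 each). Lag3, an inhibitory receptor that binds MHC class II, ranged from 5.48 to 10.8 CPM in KO and from 4.27 to 7.58 CPM in WT, with means of 9.20 ± 1.90 against 6.01 ± 1.41 CPM (SD, n = 7 each). The fitted difference on the log2 scale was 0.61 with a standard error of 0.166, at an unadjusted p of 0.00225 and an adjusted p of 0.943 from edgeR, which made it one of the 1.75% of tested genes that were higher at an unadjusted p under 0.05. Pdcd1 and Ctla4, the genes of PD-1 and CTLA4, had means of at most 0.0514 CPM in either genotype, and Cd226 was listed at 0 in all 14 libraries.

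The list for signaling from CD40 to NF-kB had 15 tested genes of 15, 14 of them above 0 and 0 at an unadjusted p under 0.05. The median of their log2 fold changes was 0.069. Beside the counts above 0 in this and the other lists, 50.8% of all tested genes and 10 of the 12 microglia markers were above 0. Its highest members per length were Nfkbia, the inhibitor of NF-kB (57.1 RPKM), Rela (42.3 RPKM) and the NF-kB subunit gene Nfkb2, with log2 fold changes of 0.16, 0.056 and 0.094. The list for interferon gamma signaling, which induces PD-L1, had 13 tested genes of 13, 11 of them above 0, with a median of 0.073. Jak1, a kinase of the interferon receptors, was the 1 gene past an unadjusted 0.05, at 285 ± 8.75 CPM in KO against 274 ± 5.45 CPM in WT (SD over 7 libraries each). The log2 difference was 0.055 with a standard error of 0.0239, at an unadjusted p of 0.0353 and an adjusted p of 0.943 from edgeR. Over all tested genes, 1.75% were higher at an unadjusted p under 0.05 and 3.37% passed it in either direction. Exons of Raver2 on the other strand overlap those of Jak1. Ifngr1 (77.5 RPKM), Irf8 (61.9 RPKM) and Stat2 (53.7 RPKM) were the highest per length, with log2 fold changes of 0.083, 0.081 and 0.13. Among 5 genes that control PD-L1 and CD86 at the surface, 4 were above 0, with a median of 0.0095. Cmtm6, which keeps PD-L1 from degradation, averaged 224 ± 12.2 CPM in KO against 211 ± 7.32 CPM in WT (SD over 7 libraries each). The log2 difference was 0.089 with a standard error of 0.0354, at an unadjusted p of 0.0235 and an adjusted p of 0.943 from edgeR. Cmtm6 was the 1 gene of these 5 at an unadjusted p under 0.05, beside the same 1.75% of all tested genes. Stub1 (18.3 RPKM) and Cmtm4 (10.6 RPKM), the next highest, had 0.0095 and −0.064.

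**Figure D5:**
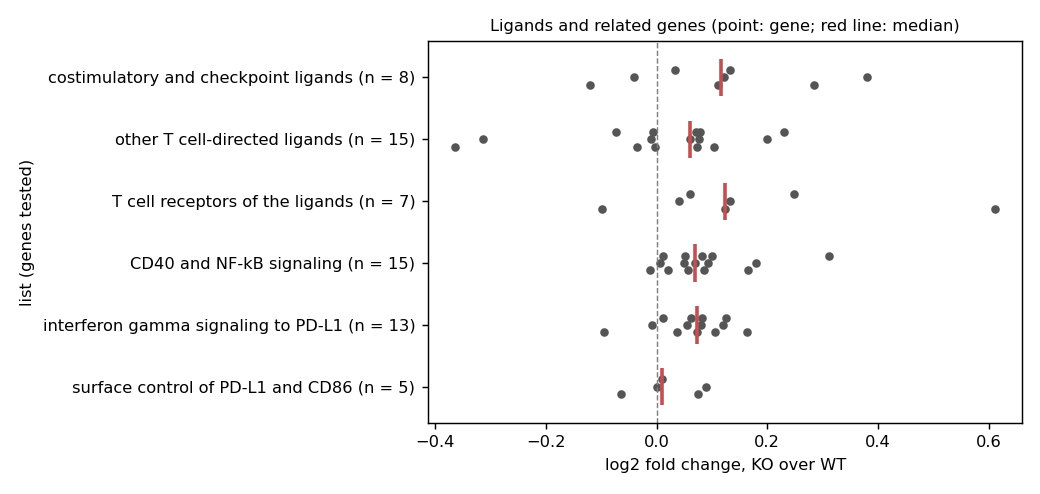
Log2 fold change of KO over WT for each tested gene (points) of the ligands and of the 5 lists of related genes, with the median of each list as a red line and 0 as a dashed line. The medians lie between 0.0095 and 0.12, and Lag3, at 0.61, is the point farthest from 0.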

How the data were processed

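Messenger RNA was measured in 7 KO and 7 WT libraries, grouped and numbered by the sample labels. The authors selected poly(A) RNA, read both ends of each fragment over 150 bases and mapped to GRCm38, and their processing notes name Trimmomatic 0.36, STAR 2.5.2b, featureCounts, Subread 1.5.2 and DESeq2. The strand setting, the annotation release and the batch of each library are not given in the sources used here, so the batch term that the authors modeled could not be fitted. The table that the authors deposited gives raw counts for each Ensembl gene and library, and 0 of its columns were left out. Names, positions and exon lengths came from GENCODE M21 (GRCm38), which matched 49056 of 49315 genes.

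Genes with low counts were removed by filterByExpr, which asks for a CPM equal to 10 counts in a library of median size in at least 7 libraries and for 15 counts in all, and libraries were scaled by TMM. KO was compared with WT in edgeR 4.0.16 (R 4.3.3) by its quasi-likelihood test, with genotype alone in the model and an adjusted p under 0.05 over all tested genes as the threshold. Standard errors and 95% intervals were derived from the F statistic. Log2 CPM used a prior count of 1. Correlations used 100000 permutations (numpy 2.4.6, random seed 1). DESeq2 1.42.0, other scalings and filters, the replicate block, an astrocyte covariate and the omission of each library were tried as alternatives.

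The ligands and lists were chosen with earlier results of these data known. The text names all 9 ligands, the list genes past the threshold or at an unadjusted p under 0.05, the 3 highest of each related list per length, and the 3 genes most like each ligand; other markers and receptors were named after their values were seen, where a cell type is defined by them or a ligand binds them. Limits at a count of 0 cover counting error only and are 3 counts of the library total.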

Additional observations from a re-analysis of the deposited data

How the results depend on the processing

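The 8 ligands kept the direction of their log2 fold change in 173 of 175 values from 22 alternatives, and 0 of these values passed the threshold. The exceptions were Cd276 with the astrocyte covariate, at 0.14 (adjusted p = 0.999 from edgeR), and Cd83 without WT replicate 4, at 0.0037. When each library was left out, Cd86 lay between 0.22 and 0.34 and Cd83 between −0.081 and 0.0037. Cd80 lay between 0.027 and 0.27, Cd40 between 0.22 and 0.55, and Cd274 between 0.041 and 0.19. Icosl lay between 0.067 and 0.17, Cd276 between −0.26 and −0.012, and Vsir between 0.017 and 0.054. The median over the ligands lay between 0.043 and 0.15 when each library was left out. The number of all genes past the threshold was 3 in edgeR, 14 in DESeq2 and 27 in DESeq2 with the replicate block, and 3 to 4 when each library was left out. With the astrocyte covariate or with the replicate block in edgeR, 0 ligands had an unadjusted p under 0.05, and 0 to 1 had when each library was left out. With the block, Cd86 had a log2 fold change of 0.27, at an unadjusted p of 0.0663 and an adjusted p of 0.792 from edgeR. In DESeq2 with the block it had 0.27, at an unadjusted p of 0.0281 and an adjusted p of 0.9997. The block changed no other call among the ligands. Whether same-numbered KO and WT libraries share a litter, day or batch is not given in the sources used here. Their deviations correlated between −0.20 and 0.74 over the 7 pairs, with 1 KO library correlating best with its own number. Upper-quartile factors turned the split of all genes at an unadjusted p under 0.05 from 274 higher and 255 lower to 189 and 398, and gave 0.27 for Cd86. Cd40 and Pdcd1lg2 had at most 20 and 8 counts per library, which limits the precision of their levels. The causes were not tested.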
